A study of Mus musculus with 9 samples.

Results

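Levels of 10 genes that act in the use of pyruvate and in glycolysis were compared between wild-type, Dgcr8 knockout and Dicer knockout mouse oocytes. The genes were chosen by name: Pdha1, Pdhb and Dlat of the pyruvate dehydrogenase complex, Mpc1 and Mpc2 of the mitochondrial pyruvate carrier, the lactate dehydrogenases Ldha and Ldhb, and Hk1, Pfkp and Pkm of glycolysis. Every probe set annotated to exactly 1 of these symbols was taken. This gave 12 probe sets for 9 of the 10 genes, among 19938 genes with such a probe set. Mpc2 had none in the annotation used here and is not analysed here. Ldhb, Hk1 and Pkm had 2 probe sets each, and all 9 genes passed the filter on low signal.

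The oocytes were at metaphase II, the stage at which an ovulated egg waits for fertilization, and 3 arrays per genotype, given as biological replicates, measured total RNA. All females were given as C57BL/6 and received 7.5 IU of pregnant mare serum gonadotropin followed by 7.5 IU of human chorionic gonadotropin. Collection was 16 h after the second hormone by the source labels, and from 14 to 16 h by the protocol. Oocytes of all 3 genotypes were freed from cumulus cells with hyaluronidase at 0.3 mg/ml, per the labels' protocols. Dgcr8 is needed to make most microRNAs, and Dicer cuts the precursors of both microRNAs and endogenous small interfering RNAs. The sources used here do not say how either knockout was made, in which cells it acts, or how many oocytes and females each array represents. Where the oocytes of 1 array come from several females, the spread between arrays is that of pools.

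As background, a growing oocyte takes up little glucose and depends on pyruvate that the surrounding cumulus cells make by glycolysis. Pyruvate enters the mitochondrion through a carrier of paired Mpc1 and Mpc2 subunits. There the pyruvate dehydrogenase complex turns it into acetyl-CoA for the tricarboxylic acid cycle. The complex has an E1 enzyme built of alpha (Pdha1) and beta (Pdhb) subunits, an E2 core (Dlat) and an E3 enzyme (Dld) held by the binding protein Pdhx. Kinases (the Pdk family) switch E1 off by phosphorylation, and phosphatases (Pdp1, Pdp2) switch it on again. Lactate dehydrogenase interconverts lactate and pyruvate in the cytosol.

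In Dicer knockout oocytes, transcripts of 2 subunits of the pyruvate dehydrogenase complex, Pdha1 and Dlat, were lower than in wild-type (log2 change -0.45, SE 0.085, and -0.41, SE 0.080, with 3 arrays a group). Pdhb (-0.11), the third subunit among the 9 genes, did not pass the test. Neither did the carrier subunit Mpc1, the lactate dehydrogenases or the glycolytic enzymes Hk1, Pfkp and Pkm. Outside the 9 genes, the subunits Dld (0.03) and Pdhx (0.01) did not pass, and Pdha2, a relative of Pdha1, was called higher (1.67). In Dgcr8 knockout oocytes 0 of the 9 genes passed, where 0.0231% of all genes tested did. Of all genes tested, 11.3% passed in Dicer knockout against wild-type and 13.4% between the knockouts. Between the knockouts, Dlat and the phosphofructokinase gene Pfkp were lower without Dicer. Of the 9 fits that each left out 1 array, the Dlat call held in 8 and the Pfkp call in only 2. The values are log2 signals, on which a difference of 1 is a 2-fold change, and they are compared only between arrays for the same probe set. Called genes are those with an adjusted p below 0.05 in limma, with Benjamini-Hochberg adjustment over the 17324 genes that passed the filter.

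The 250 bases before the start of Pdha1, Dlat and Pdhb are shown because 2 of these subunits were lower and the other was not called, and those of Pdha2 because this relative of Pdha1 moved the other way. All 4 are RefSeq sequences of assembly GRCm38.p6, read 5′ to 3′ on the minus strand, on which these genes lie. The Pdha1 window is chrX:160138431-160138680, the Dlat window chr9:50659781-50660030, the Pdhb window chr14:8172993-8173242 and the Pdha2 window chr3:141212356-141212605. Capitals mark exact matches, on either strand, to the GC box (GGGCGG), the CCAAT box (CCAAT), the E-box (CACGTG) or the TATA box (TATAAA), and no match overlapped another in these windows.
Pdha1: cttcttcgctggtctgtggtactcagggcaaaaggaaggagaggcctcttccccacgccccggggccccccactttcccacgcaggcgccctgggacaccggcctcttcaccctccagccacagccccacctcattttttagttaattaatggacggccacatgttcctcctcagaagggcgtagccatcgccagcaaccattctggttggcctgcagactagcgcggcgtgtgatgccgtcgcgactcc
Dlat: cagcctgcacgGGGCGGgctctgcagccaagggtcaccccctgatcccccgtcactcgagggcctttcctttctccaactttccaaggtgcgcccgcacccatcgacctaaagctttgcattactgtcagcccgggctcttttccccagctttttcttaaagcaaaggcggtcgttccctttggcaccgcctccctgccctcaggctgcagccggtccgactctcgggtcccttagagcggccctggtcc
Pdhb: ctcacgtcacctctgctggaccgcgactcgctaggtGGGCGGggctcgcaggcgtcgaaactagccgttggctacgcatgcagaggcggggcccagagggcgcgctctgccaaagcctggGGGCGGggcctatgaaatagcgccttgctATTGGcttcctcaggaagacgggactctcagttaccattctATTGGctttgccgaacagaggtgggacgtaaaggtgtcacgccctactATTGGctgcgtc
Pdha2: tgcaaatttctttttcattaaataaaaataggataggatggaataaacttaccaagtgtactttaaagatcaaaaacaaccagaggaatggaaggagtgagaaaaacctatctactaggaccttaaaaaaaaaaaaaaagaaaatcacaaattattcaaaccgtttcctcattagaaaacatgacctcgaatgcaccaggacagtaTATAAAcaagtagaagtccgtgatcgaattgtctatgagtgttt
The Pdha1 window held no match to any of the 4 motifs, and the Dlat window held 1 GC box. Pdhb had 2 GC boxes and 3 CCAAT boxes. The Pdha2 window held 1 TATA box and no other match. Over all 32851 promoter windows of the same length, 32.7% held a GC box, 33.8% a CCAAT box, 6.02% the E-box and 12.4% a TATA box. The G and C share was 61.6% for Pdha1, 62.8% for Dlat, 61.6% for Pdhb and 31.6% for Pdha2, against a median of 52.4% over all windows. CG pairs numbered 15, 15, 20 and 4, against a median of 6. A match is a description of the letters only, and the arrays measured nothing at these windows.

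Over the whole series, the array medians over all probe sets lay between 5.48 and 5.58 (log2). The correlation between any 2 arrays, over the genes tested with 1 probe set each, lay between 0.978 and 0.996. Each targeted gene was lowest on the arrays labelled as its knockout. Dgcr8 signals were 5.47 to 5.98 in its knockout against 8.85 to 9.05 in wild-type, and Dicer1 signals 10.57 to 10.82 in its knockout against 11.66 to 11.67. In Dicer knockout oocytes Dgcr8 read 8.28 to 8.72, below all wild-type arrays, without passing the test (log2 change -0.50, limma adjusted p 0.0644). The 15 oocyte markers averaged 11.24 to 11.50 per array, and 14 of them were at 9 or above on every array. Of the 25 cumulus and granulosa markers listed, 21 had a probe set. They averaged 4.98 to 5.04 in wild-type, 4.95 to 5.07 in Dgcr8 knockout and 4.97 to 4.99 in Dicer knockout arrays. Of the 20 tested, 0 were called in any comparison. Beside these and the marker calls below, 11.3% of all genes tested were called in Dicer knockout against wild-type. The share was 13.4% in Dicer against Dgcr8 knockout and 0.0231% in Dgcr8 knockout against wild-type. Of the 21 cumulus and granulosa markers, 1 was at 9 or above on every array. The 8 measured immune and blood markers averaged 4.72 to 4.84, 4.74 to 4.83 and 4.78 to 5.25 in the same order. Their macrophage gene Cd68 was called higher in Dicer knockout oocytes (log2 change 0.96). Of the 8, only Adgre1 was below 4 on every array, and 0 were at 9 or above on every array. The 9 measured oviduct markers averaged 6.46 to 6.51, 6.35 to 6.59 and 6.32 to 6.44, and 2 of them were at 9 or above on every array. Among them, the smooth muscle gene Myh11 was called lower without Dicer (-0.46). The oocyte markers Zp2 (0.40) and Nobox (0.24) were called higher without Dicer against wild-type. Against Dgcr8 knockout Zp2 (0.47), Nobox (0.24) and Zp3 (0.49) were called higher. The part of these markers in the results on pyruvate and glycolysis genes was not tested. In RNA from whole oocytes, less RNA per cell and a different makeup of the sample cannot be told apart.

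Judged by their neighbours in number, the 12 probe sets did not all sit on the chromosome of the gene they are named for. Probe sequences were not available here, so which transcript each probe set binds was not tested. On this array, neighbouring probe set numbers mostly belong to neighbouring genes: 97.1% of the probe sets that could be placed sat among probe sets of their gene's own chromosome. Those of Pdha1, Pdhb, Dlat, Ldha and Pfkp did. The only Mpc1 probe set, 10402648, sat among probe sets of chromosome 12, between Mok and Cinp, while the gene lies on chromosome 17; the reference lists the pseudogene Mpc1-ps in that interval. The brighter probe sets of Ldhb (10462035), Hk1 (10414661) and Pkm (10528480) sat on chromosomes 19, 14 and 5 in place of 6, 10 and 9. For Ldhb, the interval between Cemip2 and Trpm3 holds Ldhb-ps in the reference. The annotation of this Ldhb probe set, like that of the Mpc1 probe set, also cites a RefSeq mRNA. The brighter Hk1 probe set was linked to the gene by a single accession, which also appears in all 16 probe sets that name Hk1 with other genes, and all 16 of those name the ribosomal protein gene Rpl17 too. Values of these 4 probe sets are therefore given as those of probe sets named for the genes, and for Ldhb, Hk1 and Pkm the probe set at the gene's own chromosome is given beside them.

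**Figure D1:**
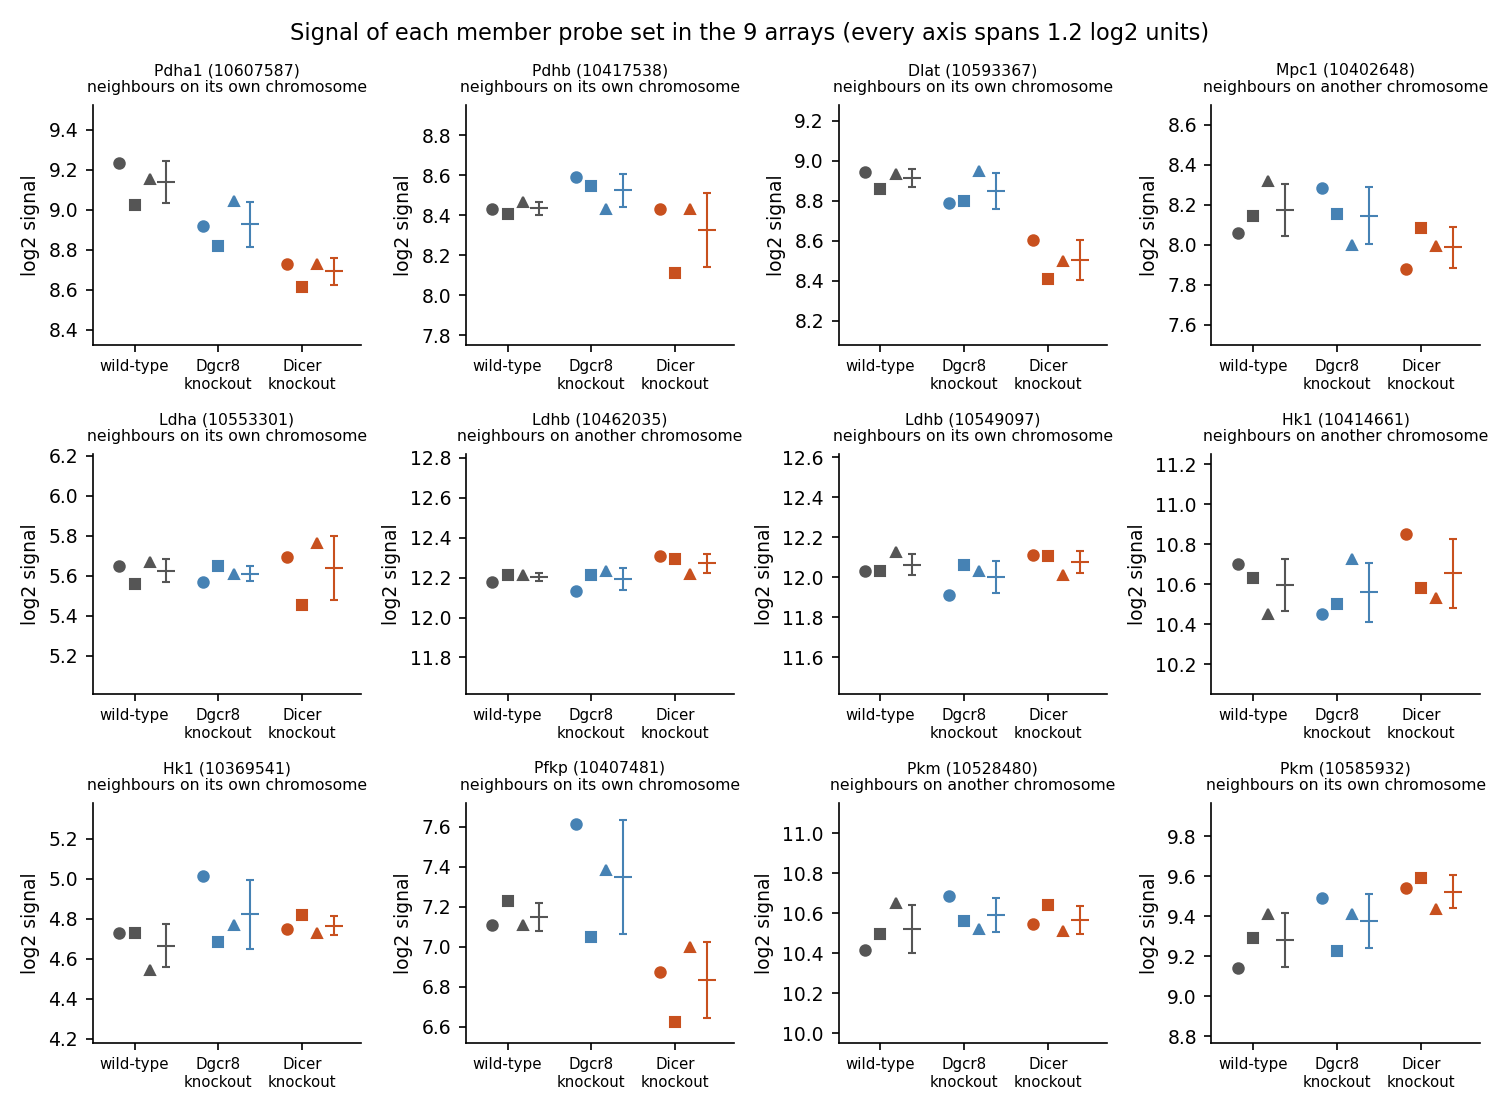
Log2 signal (vertical axis) of the 12 probe sets of the 9 genes on the 9 arrays, by genotype (horizontal axis). Points are single arrays, bars the group mean and its SD (3 arrays), and every panel spans 1.2 log2 units. The Dicer knockout points of Pdha1, Dlat and Pfkp lie below every wild-type point, and those of Pkm probe set 10585932 and Ldhb probe set 10462035 above. Circles, squares and triangles are replicates 1, 2 and 3.

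Pdha1 (Entrez gene 18597, probe set 10607587, chromosome X) encodes the E1 alpha subunit, which carries the phosphorylation sites that switch the complex off. Its log2 signal was 9.23, 9.03 and 9.16 on the 3 wild-type arrays. It was 8.92, 8.82 and 9.04 on the Dgcr8 knockout arrays and 8.73, 8.62 and 8.73 on the Dicer knockout arrays. All Dicer knockout arrays were below all others, and the Dgcr8 knockout arrays were mostly below wild-type, with 1 of them above the lowest wild-type array. The means were 9.14 ± 0.105, 8.93 ± 0.113 and 8.69 ± 0.066 (SD, n = 3 each). Against wild-type, Pdha1 fell by 26.6% without Dicer (log2 change -0.45, 95% interval -0.64 to -0.26, adjusted p 0.0076, limma). Without Dgcr8 the log2 change was -0.21 (-0.40 to -0.02), with an unadjusted p of 0.0327 and an adjusted p of 1 in limma, so it was not called. The direct difference between the knockouts was -0.24 (-0.43 to -0.05, limma adjusted p 0.105). The levels thus ran wild-type, Dgcr8 knockout, Dicer knockout, but of the neighbours in that order neither pair passed the test. After quantile normalization the knockouts differed with a limma adjusted p of 0.0483, the only 1 of 11 alternative settings that passed. Median centring gave a limma adjusted p of 0.156. Of the 9 fits without 1 array, 0 passed (limma adjusted p 0.0849 to 0.276).

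Dlat (Entrez gene 235339, probe set 10593367, chromosome 9) encodes E2, the acetyltransferase that forms the core of the complex. Its signal was 8.94, 8.86 and 8.93 in wild-type, 8.79, 8.80 and 8.95 in Dgcr8 knockout, and 8.60, 8.41 and 8.50 in Dicer knockout oocytes. The Dicer knockout arrays were below all the others, while the wild-type and Dgcr8 knockout arrays overlapped. Group means were 8.91 ± 0.045, 8.85 ± 0.090 and 8.50 ± 0.099 (SD, n = 3 each). Dlat fell by 24.6% without Dicer against wild-type (log2 change -0.41, 95% interval -0.59 to -0.23, limma adjusted p 0.0090). It also fell by 21.2% against Dgcr8 knockout (-0.34, -0.52 to -0.16, limma adjusted p 0.0188). Without Dgcr8 knockout replicate 3, the limma adjusted p of that second comparison was 0.0654, and with the wild-type arrays left out of the fit it was 0.0593. Dgcr8 knockout differed from wild-type by -0.06 (-0.24 to 0.11, limma adjusted p 1).

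Pdhb (Entrez gene 68263, probe set 10417538, chromosome 14) encodes E1 beta, the partner of Pdha1. Wild-type arrays read 8.43, 8.41 and 8.47, Dgcr8 knockout arrays 8.59, 8.55 and 8.43, and Dicer knockout arrays 8.43, 8.11 and 8.43. The groups overlapped, and Dicer knockout replicate 2 was the only low array. The change without Dicer was -0.11 (95% interval -0.33 to 0.11, limma adjusted p 0.604), and with replicate 2 of that group left out it was -0.002. On 4 arrays of the 3 genotypes the signal was exactly the same number. In these deposited values 44.8% of all probe sets repeat a value on some arrays, and 13% repeat it on at least 4.

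The alpha and beta subunits of E1 were also compared within each array. The log2 difference Pdha1 minus Pdhb was 0.80, 0.62 and 0.69 on the wild-type arrays. It was 0.32, 0.27 and 0.61 on the Dgcr8 knockout arrays and 0.30, 0.50 and 0.29 on the Dicer knockout arrays. All 6 knockout arrays were below all 3 wild-type arrays. The size of such a difference between probe sets has no meaning of its own, only its change between groups. It was lower by a mean of -0.30 without Dgcr8 and of -0.34 without Dicer, each with a p of 0.1 in the two-sided exact permutation test, the smallest that 3 against 3 arrays can give. After adjustment over the 4 comparisons of paired genes both were 0.2, so neither passed.

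**Figure D2:**
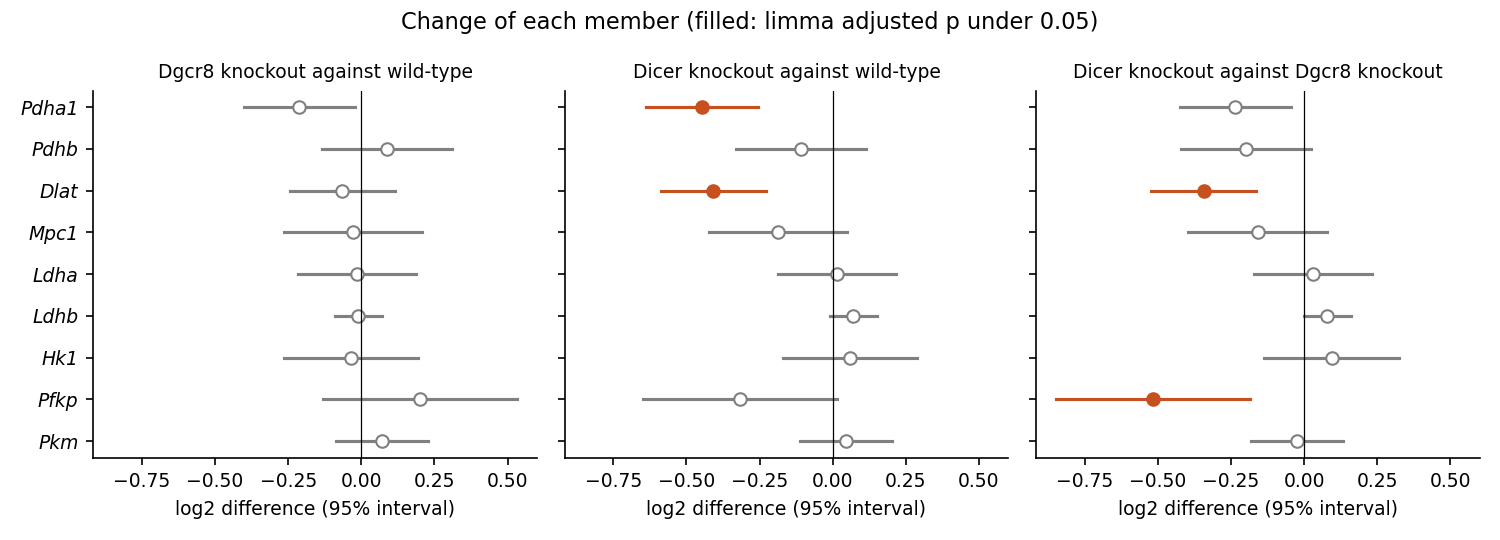
Log2 difference between group means (horizontal axis) with its 95% interval from limma, for the 9 genes in the 3 comparisons. Filled points passed an adjusted p of 0.05: Pdha1 and Dlat for Dicer knockout against wild-type, Dlat and Pfkp for Dicer knockout against Dgcr8 knockout, and no gene for Dgcr8 knockout against wild-type.

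Counted over the 9 genes, 2 were called in Dicer knockout against wild-type, both lower, where 11.3% of all genes tested were called and 6.47% were called lower. Their median log2 change was -0.11, against -0.03 over all genes tested, and the range was -0.45 to 0.07. Here Mpc1, Ldhb, Hk1 and Pkm enter through the probe sets that sit on another chromosome. Over the 8 genes with a probe set at their own chromosome, the same 2 were called, the median was -0.05 and the range was -0.45 to 0.24. In Dgcr8 knockout against wild-type 0 of 9 were called by limma, where 0.0231% of all genes were. At an unadjusted p under 0.05, that comparison held 1 of the 9 (Pdha1) and 2.64% of all genes. The median change of the 9 was -0.02 (range -0.21 to 0.20), against -0.003 over all genes, and 0.04 with the probe sets at the genes' own chromosomes. In Dicer against Dgcr8 knockout 2 of 9 were called, both lower, where 13.4% of all genes were called and 7.92% were called lower. The median was -0.16 (range -0.52 to 0.09), against -0.02 over all genes. That count of 2 was 0 without Dgcr8 knockout replicate 3 and 1 without any of 6 other arrays, and it stayed at 2 without Dgcr8 knockout replicate 2 or Dicer knockout replicate 3. The comparisons share arrays, so their counts are not independent. By array, the median deviation of the 9 genes from the wild-type mean was -0.17 for Dicer knockout replicate 2 and between -0.07 and 0.02 for the other 8 arrays. Without that array the same 2 genes remained called against wild-type.

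**Figure D3:**
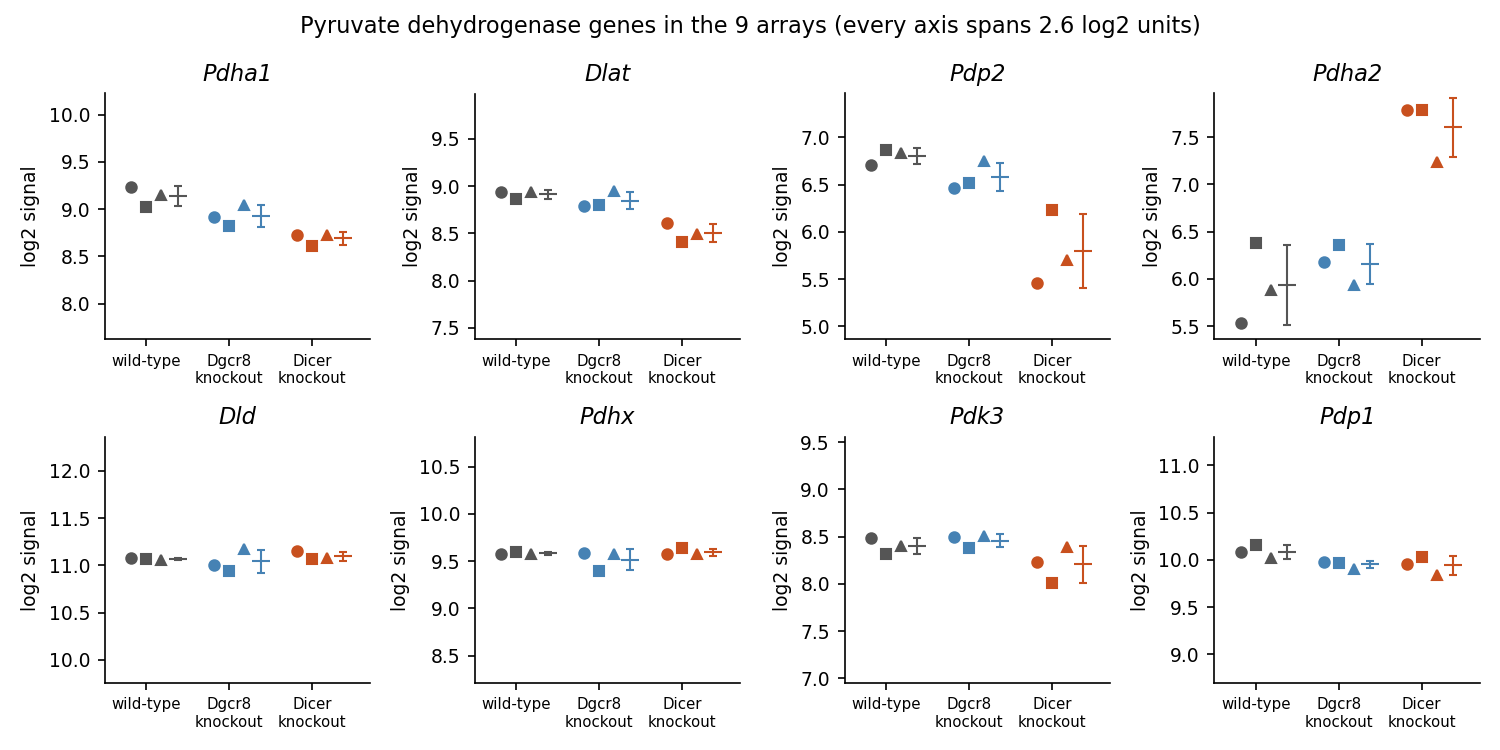
Log2 signal (vertical axis) of 8 genes of the pyruvate dehydrogenase complex and its regulators on each array, by genotype (horizontal axis), with group means and SD (3 arrays). Every panel spans 2.6 log2 units. Pdha2 is higher and Pdp2, Pdha1 and Dlat are lower on all Dicer knockout arrays, while Dld and Pdhx overlap between all groups.

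Other genes of the complex moved in both directions in Dicer knockout oocytes. Of 13 listed genes (the subunits, kinases and phosphatases), 12 were tested, and 1 was called higher and 3 lower against wild-type, beside 11.3% of all genes called and 6.47% called lower. The median change of the list was -0.13, against -0.03 over all genes. The gene called higher was Pdha2 (probe set 10502446), the intronless relative of Pdha1 best known from male germ cells. It read 5.54, 6.38 and 5.88 in wild-type, 6.18, 6.36 and 5.94 in Dgcr8 knockout and 7.78, 7.79 and 7.24 in Dicer knockout oocytes. All Dicer knockout arrays were above all others. Pdha2 rose 3.19-fold against wild-type (log2 change 1.67, SE 0.220, limma adjusted p 0.0010) and 2.72-fold against Dgcr8 knockout (1.45, limma adjusted p 0.0021). Whether probes of the 2 relatives also bind the other's transcript was not tested.

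The third gene called lower, beside Pdha1 and Dlat, was Pdp2, a catalytic subunit of the phosphatase that switches E1 on. It read 6.71, 6.87 and 6.83 in wild-type, 6.47, 6.51 and 6.75 in Dgcr8 knockout and 5.46, 6.23 and 5.71 in Dicer knockout oocytes, again with every Dicer knockout array below the rest. The log2 change was -1.01 (SE 0.172, 95% interval -1.39 to -0.62, limma adjusted p 0.0044) against wild-type and -0.78 (limma adjusted p 0.0147) against Dgcr8 knockout, the latter with an adjusted p of 0.0595 without Dgcr8 knockout replicate 3. The remaining subunits, named after their values were seen because they complete the complex, did not pass against wild-type. Dld differed by 0.03 (95% interval -0.10 to 0.16) and Pdhx by 0.01 (-0.14 to 0.16). Like Pdhb, Pdhx had exactly the same signal, 9.57, on arrays of all 3 genotypes, among them wild-type and Dicer knockout replicates 1 and 3. The kinases Pdk1 (0.09), Pdk2 (0.09) and Pdk3 (-0.19), the other phosphatase Pdp1 (-0.14) and the phosphatase regulator Pdpr (-0.21) were not called either.

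Mpc1 (Entrez gene 55951) encodes 1 of the paired subunits that carry pyruvate into the mitochondrion. Its probe set, which sat at the pseudogene interval on chromosome 12, read 8.06, 8.14 and 8.32 in wild-type, 8.28, 8.15 and 7.999 in Dgcr8 knockout and 7.88, 8.08 and 7.996 in Dicer knockout oocytes. The 3 groups overlapped. Changes against wild-type were -0.03 without Dgcr8 and -0.19 without Dicer (95% interval -0.42 to 0.05, limma adjusted p 0.343). Of 10 listed genes of pyruvate and lactate transport and of pyruvate carboxylation, 8 were tested and 0 were called by limma in any comparison. Of all genes tested, 11.3% were called in Dicer knockout against wild-type and 13.4% against Dgcr8 knockout. The median change of the 8 without Dicer was -0.05.

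Ldha (Entrez gene 16828, probe set 10553301, chromosome 7) encodes the lactate dehydrogenase subunit typical of glycolytic cells. It read 5.65, 5.56 and 5.67 in wild-type, 5.57, 5.65 and 5.61 in Dgcr8 knockout and 5.70, 5.46 and 5.76 in Dicer knockout oocytes. The groups overlapped, and the change without Dicer was 0.01 (95% interval -0.19 to 0.22, limma adjusted p 0.961). The mean Ldha signal of 5.62 lay near the middle of the array, with 51.5% of all probe sets below it. How far it stands above background was not tested. Ldhb (Entrez gene 16832) encodes the other main subunit, the form known to be abundant in mouse oocytes and early embryos.

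Its probe set at the gene's own chromosome, 10549097, read 12.03, 12.03 and 12.12 in wild-type, 11.91, 12.06 and 12.03 in Dgcr8 knockout and 12.11, 12.11 and 12.01 in Dicer knockout oocytes. Probe set 10462035, on chromosome 19, read 12.18, 12.21 and 12.21, then 12.13, 12.21 and 12.23, then 12.31, 12.29 and 12.22 in the same order. The first overlapped between all groups, and in the second the Dicer knockout arrays were all above wild-type. Neither change without Dicer passed, at 0.01 (limma adjusted p 0.920) and 0.07 (95% interval -0.01 to 0.15, limma adjusted p 0.285). The within-array difference Ldha minus Ldhb moved by -0.005 without Dgcr8 and by -0.06 without Dicer, with exact permutation p of 0.9 and 0.8 and adjusted values of 0.9 for both. These values rest on probe set 10462035. With 10549097, at the gene's own chromosome, the shifts were 0.05 and 0.0005, with unadjusted exact permutation p of 0.3 and 1. Ldhc, the testis form, was the only lactate dehydrogenase gene of 5 tested that was called (20%, beside 13.4% of all genes). The call was in Dicer against Dgcr8 knockout (log2 change 1.16, limma adjusted p 0.0246). Ldhc read 7.59, 7.72 and 6.56 in Dicer knockout, 5.87, 6.05 and 6.47 in Dgcr8 knockout and 6.74, 6.53 and 6.19 in wild-type oocytes, so that 1 Dicer knockout array lay within the wild-type range. That call was lost when any of 4 arrays was left out (Dgcr8 knockout replicates 1 and 2, Dicer knockout replicates 1 and 2), with limma adjusted p of 0.0908, 0.0795, 0.0919 and 0.0730. With only the arrays of both groups it was 0.0557.

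Hk1 (Entrez gene 15275) encodes hexokinase, which traps glucose in the cell. Its probe set at the gene's own chromosome, 10369541, was dim, with 4.73, 4.73 and 4.54 in wild-type, 5.02, 4.69 and 4.77 in Dgcr8 knockout and 4.75, 4.82 and 4.73 in Dicer knockout oocytes. Probe set 10414661, on chromosome 14, read 10.70, 10.63 and 10.45, then 10.45, 10.50 and 10.73, then 10.85, 10.58 and 10.53. At the first probe set the Dicer knockout arrays reached down to the wild-type level of 4.73, and at the second all groups overlapped. The changes without Dicer were 0.10 (limma adjusted p 0.637) and 0.06 (limma adjusted p 0.819). Since only the dim probe set sat among probe sets of the gene's chromosome, a change in Hk1 itself rests on signals of 4.54 to 5.02, near the filter of 4.

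Pfkp (Entrez gene 56421, probe set 10407481, chromosome 13) encodes the platelet form of phosphofructokinase, the enzyme at the main control point of glycolysis. Wild-type arrays read 7.11, 7.23 and 7.11, Dgcr8 knockout arrays 7.61, 7.05 and 7.38, and Dicer knockout arrays 6.87, 6.63 and 7.00. The Dicer knockout arrays were below all others, and the Dgcr8 knockout arrays were the most spread (7.35 ± 0.284, SD, n = 3). Between the knockouts, Pfkp fell by 30.1% without Dicer (log2 change -0.52, SE 0.148, 95% interval -0.85 to -0.19, limma adjusted p 0.0460). The limma adjusted p stayed under 0.05 when Dgcr8 knockout replicate 2 or Dicer knockout replicate 3 was left out. With any of the other 7 arrays left out it was between 0.0654 and 0.153, the highest without Dgcr8 knockout replicate 1. The call was also lost with no filter (limma adjusted p 0.0526), median centring (0.0609), only the arrays of both groups (0.104) and a replicate block (0.0509). Against wild-type the change was -0.32 without Dicer (95% interval -0.65 to 0.01, limma adjusted p 0.234), and it was 0.20 without Dgcr8 (-0.13 to 0.53, limma adjusted p 1).

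Pkm (Entrez gene 18746) encodes pyruvate kinase, the last enzyme of glycolysis, which makes pyruvate. Its probe set at the gene's own chromosome, 10585932, read 9.14, 9.29 and 9.41 in wild-type, 9.49, 9.23 and 9.41 in Dgcr8 knockout and 9.54, 9.59 and 9.43 in Dicer knockout oocytes. Every Dicer knockout array was above every wild-type array. The change was 0.24 (95% interval 0.03 to 0.45), with a limma adjusted p of 0.144. Probe set 10528480, on chromosome 5, read 10.42, 10.50 and 10.65, then 10.69, 10.56 and 10.52, then 10.55, 10.64 and 10.51, and its groups overlapped (0.05, limma adjusted p 0.787). The 2 probe sets named for Pkm thus gave changes of different size, and neither was called in any comparison.

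Of 36 listed genes of glucose uptake and glycolysis, 29 were tested. Against wild-type 2 were called lower without Dicer and 0 higher, which is 6.9% beside the 11.3% of all genes called and the 6.47% called lower. The median change was -0.04, against -0.03 over all genes. Pfkfb2, which makes the activator of phosphofructokinase, read 7.28, 7.33 and 7.17 in wild-type, 7.31, 7.17 and 7.62 in Dgcr8 knockout and 7.03, 6.43 and 6.55 in Dicer knockout oocytes. The Dicer knockout arrays lay below all others. The log2 change was -0.59 (SE 0.165, limma adjusted p 0.0463) against wild-type and -0.70 (limma adjusted p 0.0201) against Dgcr8 knockout. Both calls depended on single arrays and on the processing. The first was lost when any of 7 arrays was left out, all but Dgcr8 knockout replicate 3 and Dicer knockout replicate 1 (limma adjusted p up to 0.137, without wild-type replicate 2). The second was lost without Dgcr8 knockout replicate 1 (0.0520) or 3 (0.0737) and without Dicer knockout replicate 2 (0.0584) or 3 (0.0624). With only the arrays of both groups, the limma adjusted p was 0.0735 for the first and 0.0570 for the second. The first was also lost with no filter (0.0533), median centring (0.0840) and a replicate block (0.0615).

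Eno4, an enolase relative known from sperm, read 5.52, 5.43 and 5.41 in wild-type, 5.35, 5.28 and 5.32 in Dgcr8 knockout and 5.18, 5.21 and 5.15 in Dicer knockout oocytes, so that no 2 groups overlapped. Its log2 change without Dicer was -0.27 (SE 0.067, limma adjusted p 0.0263). That call was lost without wild-type replicate 1, 2 or 3 (limma adjusted p 0.105, 0.0732 and 0.0562) and without Dicer knockout replicate 1 or 3 (0.0601 and 0.0664). With a replicate block the limma adjusted p was 0.0607. Against Dgcr8 knockout the genes of the glycolysis list called lower were Pfkp and Pfkfb2, and 0 were higher. They are 6.9% of the 29 tested, beside 13.4% of all genes called and 7.92% called lower in that comparison.

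**Figure D4:**
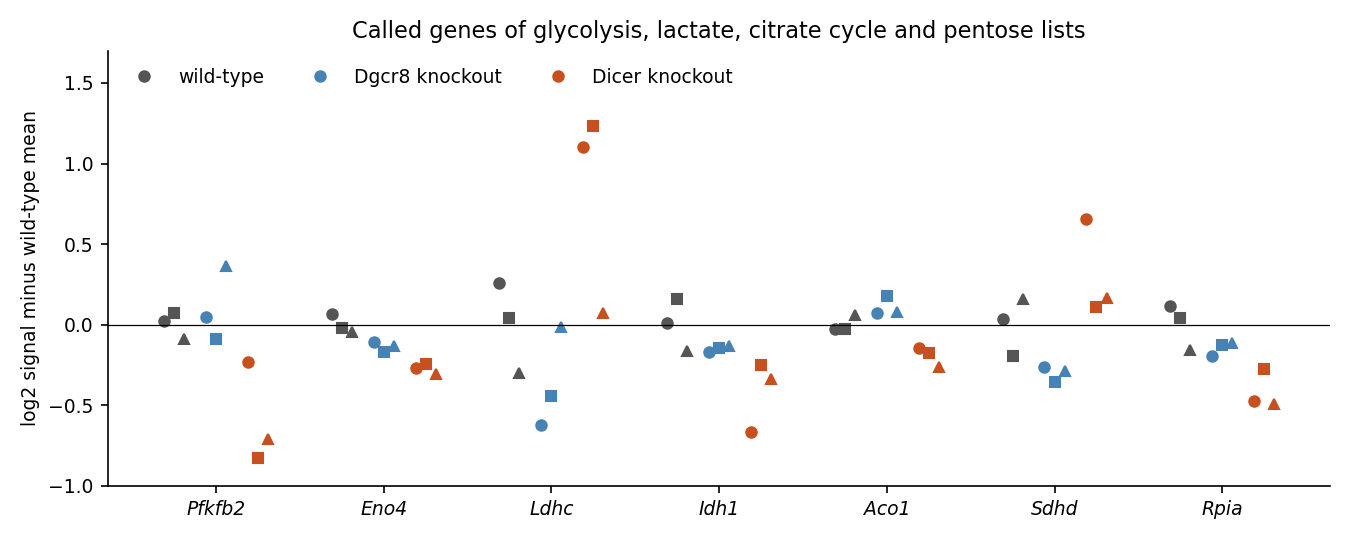
Log2 signal minus the wild-type mean (vertical axis) of 7 genes called in other pathway lists or in glycolysis, by genotype. Circles, squares and triangles are replicates 1, 2 and 3. Pfkfb2, Eno4, Idh1, Aco1 and Rpia lie below the wild-type mean on all Dicer knockout arrays, and Sdhd and Ldhc lie above it.

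Past the complex, the tricarboxylic acid cycle list, which also holds cytosolic enzymes such as Idh1 and Aco1, had 23 genes tested. Their median change was -0.01 without Dicer against wild-type. The only one called there (4.35%, beside 11.3% of all genes) was Idh1, the cytosolic isocitrate dehydrogenase. It read 8.75, 8.90 and 8.58 in wild-type, 8.57, 8.60 and 8.61 in Dgcr8 knockout and 8.08, 8.49 and 8.41 in Dicer knockout oocytes. Dicer knockout arrays were below the rest, with a log2 change of -0.42 (SE 0.119, limma adjusted p 0.0498). That call was lost without any 1 of 7 arrays, all but wild-type replicate 3 and Dicer knockout replicate 2, with limma adjusted p of 0.0675 to 0.174. It was also lost with no filter (limma adjusted p 0.0572), median centring (0.0642) and no trend or robust setting (0.0547). With only the arrays of both groups it was 0.119, and with a replicate block 0.0547.

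Against Dgcr8 knockout, Aco1, the cytosolic aconitase, was lower without Dicer by a log2 change of -0.31 (limma adjusted p 0.0097). Its signals were 9.46, 9.43 and 9.34 against 9.68, 9.78 and 9.68, with 9.57, 9.57 and 9.66 in wild-type. The Dicer knockout arrays were thus below both other groups, and against wild-type the change was -0.19 (limma adjusted p 0.0767). Sdhd, a membrane anchor of succinate dehydrogenase, was higher by 0.61 (limma adjusted p 0.0178) against Dgcr8 knockout. It read 9.69, 9.15 and 9.20 without Dicer, 8.77, 8.68 and 8.75 without Dgcr8 and 9.07, 8.84 and 9.20 in wild-type oocytes. The Dgcr8 knockout arrays were below both other groups, and the wild-type and Dicer knockout arrays overlapped. The call on Sdhd was lost without Dgcr8 knockout replicate 2 or 3 (limma adjusted p 0.0612 and 0.0535).

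In the pentose phosphate pathway, a branch that makes ribose and NADPH from glucose, 10 genes were tested, with a median change of 0.09 without Dicer. Rpia, the ribose-5-phosphate isomerase, was the only one called (10% against wild-type, beside 11.3% of all genes). Its signals were 8.33, 8.26 and 8.06 in wild-type, 8.03, 8.09 and 8.10 in Dgcr8 knockout and 7.74, 7.94 and 7.72 in Dicer knockout oocytes, with the last group below the others. The log2 change was -0.41 against wild-type (SE 0.099, limma adjusted p 0.0236). The limma adjusted p was 0.0960 and 0.0854 without wild-type replicates 1 and 2, and 0.0760 and 0.0671 without Dicer knockout replicates 1 and 3. With only the arrays of both groups it was 0.0639. Of 5 gluconeogenesis genes tested 0 were called by limma, with a median change of -0.05. Of all genes tested, 11.3% were called in Dicer knockout against wild-type.

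Over the 7 pathway lists, 92 of 105 genes were tested. Without Dicer, 8 were called against wild-type (1 higher and 7 lower), which is 8.7% beside the 11.3% of all genes. Against Dgcr8 knockout 8 were called (3 higher and 5 lower), again 8.7%, beside 13.4%. Without Dgcr8, 0 were called by limma against wild-type, and 1 had an unadjusted p under 0.05. By list the shares differed: against wild-type, 33.3% of the pyruvate dehydrogenase complex genes tested were called without Dicer, 10% of the pentose phosphate genes and 6.9% of the glycolysis genes. The share was 4.35% in the tricarboxylic acid cycle list, from the cytosolic Idh1 alone, and 0% in the other 3 lists. Against Dgcr8 knockout 25% of the complex genes were called. These lists hold 5 to 29 tested genes, and no test compared them with other genes. Without wild-type replicate 1 or 2 the 8 calls against wild-type were 4, and without Dicer knockout replicate 1 they were 5. Against Dgcr8 knockout they were 3 without Dgcr8 knockout replicate 3 and 5 without its replicate 1. The 9 genes described above are members of these lists too, and Pdha1 and Dlat are among the 8 called against wild-type.

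The profile of Pdha1 over the 9 arrays, centred on the wild-type mean, was compared with that of every tested gene by the root mean square of the log2 differences. The closest 3 genes were Ica1 (0.055), Cenpu (0.059) and Bud13 (0.082). Their changes without Dicer were -0.46, -0.44 and -0.53, and without Dgcr8 -0.20, -0.22 and -0.26. Within the pathway lists the closest were Dlat (0.099), Eno4 (0.132) and Rpia (0.137). These are descriptions over 9 arrays of 3 genotypes.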

How the data were processed

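The deposited values are log2 signals, 1 per probe set and array, made by the authors with GCRMA per the submitters' processing notes (version not given in the sources used here), which corrects background and normalizes between arrays, so that a change shared by all transcripts would not show. No further normalization was applied here. Of 35557 probe sets, 21789 name 1 gene, 1621 several and 12147 none here, in an annotation matched by Entrez identifier to GRCm38.p6 for 21698. A gene took its probe set of highest mean. Genes at 4 or above on at least 3 arrays were tested: 17324.

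Groups came from the labels. limma 3.58.1 (R 4.3.3, statmod 1.5.0; lmFit, eBayes with trend and robust) was fitted on all 9 arrays without covariates, two-sided. Only 3 arrays per group limit the precision: the median 95% half-width was 0.23. Pairs of genes were compared by exact permutation over arrays. On simulated data of 17324 genes, 50 genes were changed at each size. In Dicer knockout against wild-type, 52% of those changed by 0.5, 80% by 1 and 90% by -1 were recovered. The real comparison called far more genes (1964) than were changed there, so these shares may not carry over to it.

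Named were all 10 genes, every pathway list gene called in any comparison, the targeted genes, called markers and the 3 profiles nearest to Pdha1, over all genes and within the lists. Dld, Pdhx, Pdk1, Pdk2, Pdk3, Pdp1, Pdpr and Adgre1 were named outside this rule, after their values were seen. The genes and lists were chosen with earlier results of these data known. Alternatives were the filter, scaling, probe set choice, eBayes settings, arrays in the fit, array weights, threshold, a replicate block and leaving out each array. The alternative restricted to probe sets placed on the gene's chromosome was chosen after seeing the data. The planned difference Mpc1 minus Mpc2 was left out, since Mpc2 had no probe set here.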

Additional observations from a re-analysis of the deposited data

How the results depend on the processing

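The lower Pdha1 and Dlat in Dicer knockout against wild-type were called under all 11 alternatives tried at this threshold (limma adjusted p 0.0034 to 0.0208 and 0.0033 to 0.0267) and without any 1 array (0.0090 to 0.0376 and 0.0105 to 0.0398). In Dicer against Dgcr8 knockout, the 2 calls among the 9 genes became 1 with no filter, 1 with median centring, 0 with only the arrays of both groups and 0 at an adjusted p under 0.01, and 0 to 2 without 1 array. Calls among pathway genes against wild-type, 8, became 5 with only both groups' arrays and 4 at 0.01, and ranged from 4 to 10 without 1 array. Against Dgcr8 knockout they became 4, 2 and, at an adjusted p under 0.1, 15, and ranged from 3 to 10. Over all genes, Dgcr8 knockout against wild-type gave 2 calls with only both groups' arrays, and 2 to 4 without 1 array. Dicer knockout against wild-type gave 981 at 0.01, and 1238 (without wild-type replicate 3) to 1959 without 1 array. Against Dgcr8 knockout there were 1127 at 0.01, and 1511 (without Dgcr8 knockout replicate 1) to 2248. No called change among the 9 genes turned its direction under any alternative run. Many alternatives could not turn it, since the called genes Pdha1, Dlat and Pfkp have only 1 probe set each. The filter, probe set choice, eBayes settings, replicate block and fits of only both groups' arrays left their log2 changes as they were.

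Replicate numbers did not pair the arrays: same-numbered deviations correlated between -0.24 and 0.11, and arrays did not all correlate best with their own number. With the replicate number as a block, calls in Dicer against Dgcr8 knockout among the 9 genes went from 2 to 1, as Pfkp reached a limma adjusted p of 0.0509, and pathway calls against wild-type from 8 to 5.

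Signals near the filter, such as that of the Hk1 probe set at its gene's own chromosome, limit what a small change can show. Mpc1 has no probe set at its own chromosome here.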
